A study of Mus musculus with 16 samples.

Results

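The genes described here encode the proteasome and its helpers, as read in the CD8+ T cells of mouse kidney allografts and spleens. They were chosen by symbol: every gene named Psma, Psmb, Psmc, Psmd, Psme, Psmf or Psmg followed by a digit. This gave 50 genes among the 32285 genes listed in any of the 9 CD8+ T cell matrices. Of the 16243 genes listed in all 9, a filter on low counts left 12247 to be tested, 48 of the members among them. The 2 that were not tested, Psma8 and Psmb11, encode core subunits that are otherwise confined to testis and thymic epithelium, and neither exceeded 0.513 UMIs per 1000000 UMIs of a library (CPM) in any library. Psmb11 was left out because the naive spleen matrix did not list it, so 49 members could be read there. The 5 genes that interferon γ is known to induce, Psmb8, Psmb9, Psmb10, Psme1 and Psme2, were treated as the immunoproteasome, apart from the other 45. Another 2 of the symbols name no subunit. Psmc3ip encodes a recombination partner of the strand exchange proteins, and Psme2b is a near copy of Psme2 with which it can share reads, so the values of Psme2b are uncertain.

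The proteasome is the protease that degrades ubiquitin-tagged proteins. Its 20S core is a barrel of alpha subunits, which gate the entrance, and beta subunits, of which Psmb5, Psmb6 and Psmb7 carry the catalytic sites. The 19S particle caps the core, recognises ubiquitin and unfolds the substrate with a ring of ATPases. In lymphocytes and in cells that receive interferon γ, Psmb8, Psmb9 and Psmb10 take the places of the constitutive catalytic subunits and change which peptides are cut for presentation on class I molecules. Psme1 and Psme2 form the 11S activator that opens the same core without ubiquitin. T cells are known to raise protein turnover when they are activated and divide.

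Viable CD45+ cells had been sorted from kidneys and spleens and read with droplet-based 3′ single-cell RNA-seq, in which each unique molecular identifier (UMI) stands for 1 captured transcript. Kidneys of DBA/2J mice placed in C57BL/6J (B6) recipients without immunosuppressive drugs are accepted, and these grafts and the recipients' spleens were taken at 1, 3 and 24 weeks. B6 kidneys placed in DBA/2J recipients are rejected, and the graft and the recipient's spleen were taken at 1 week. The labels nevertheless give strain C57BL/6J and genotype WT for every sample, rejecting ones included. Spleens of naive mice without a transplant served as the untreated background. The mice were male, and their ages are not given in the sources used here. Tags in the cell barcodes separated 32 libraries: 3, 5 and 3 from the accepted kidneys at 1, 3 and 24 weeks, the same numbers from the recipients' spleens, 2 from rejecting kidneys, 3 from rejecting spleens and 5 from naive spleens. The study's methods treat every mouse as its own sample but give numbers of replicates for the accepted groups alone, so the spread between rejecting or between naive libraries may be technical. All groups shared 1 estimate of the spread, so p-values that involve these groups rest also on the spread of the other groups.

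The authors' CD8+ T cell matrices held 72639 cells, of which the 56585 with at least 1 UMI of Cd8a or Cd8b1 were used. Cells with such a UMI made up 83.5% to 97.0% of the accepted kidney libraries at 1 and 3 weeks but 41.9% to 51.8% of the recipient spleens at those times. All 6 CD8+ T cell markers were detected in every group. Their sum was 4766 to 8066 CPM in accepted kidneys and 3175 to 3695 CPM in recipients' spleens at 1 and 3 weeks. It was 3330 to 3701 CPM in naive and rejecting spleens. At 24 weeks it was 3524 to 3686 CPM in libraries labelled kidney and 6840 to 7143 CPM in those labelled spleen. At 24 weeks some measures of the libraries differed from those of the same tissue of accepting recipients at 1 and 3 weeks. Those labelled kidney had 46.2% to 49.2% of cells with a Cd8a or Cd8b1 UMI, 41.6% to 43.4% of UMIs from ribosomal protein genes and 5.23 to 8.05 summed CPM of 20 kidney parenchyma genes. Those labelled spleen had 93.4% to 95.3%, 28.7% to 30.8% and 9.02 to 14.6, in that order, and their share with a Cd8a or Cd8b1 UMI was nearer to that of accepted kidneys than of recipients' spleens at 1 and 3 weeks. The kidney parenchyma sum overlapped that of the same tissue at 1 week, at 5.88 to 12.7 CPM in accepted kidneys and 7.48 to 9.35 CPM in recipients' spleens. At 3 weeks it was 11.0 to 15.7 CPM and 1.02 to 8.03 CPM. Other spleens did not separate from kidneys in the share with a Cd8a or Cd8b1 UMI, which was 96.1% ± 1.23 (SD, n = 5) in naive and 100% in rejecting spleens. Ribosomal protein genes took 28.2% to 34.0% of UMIs in rejecting spleens. At 1 and 3 weeks they took 26.4% to 29.6% in accepted kidneys and 36.0% to 41.2% in recipients' spleens. The sum of 4 B cell markers was then 8.86 to 26.4 CPM and 103 to 839 CPM, and 27.9 to 55.6 CPM in naive spleens. At 24 weeks this sum was 78.4 to 209 CPM in libraries labelled kidney and 13.9 to 42.8 CPM in those labelled spleen. Whether the labels at 24 weeks hold was not tested. They are therefore called libraries labelled kidney or spleen at 24 weeks, and no direction between tissues is drawn from them. The rejecting matrices listed 32285 genes against 17517 to 19497 in the others, and how the files were filtered is not given in the sources used here. The largest share of cell barcodes that 2 libraries had in common was 1.79% of the smaller one, a single cell of 56. Total UMIs per library ran from 153266, in the second rejecting spleen library, to 22782080.

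The immunoproteasome genes lie close together in pairs. On chromosome 17 of build GRCm38, inside the major histocompatibility complex, Psmb9 (chr17:34182030-34187330, minus strand) and Psmb8 (chr17:34198195-34201454, plus strand) are 10.9 kb apart, with the peptide transporter gene Tap1 (chr17:34187556-34197225) between them. On chromosome 14, Psme1 (chr14:55578494-55581527) and Psme2 (chr14:55587440-55591101) are 5.91 kb apart. Psmb10 stands alone on chromosome 8, and the constitutive Psmb5 lies on chromosome 14. The 120 bases before the start of Psmb8 and Psmb9 are shown beside those of Psmb5 and Psmb6, the constitutive subunits whose places in the core they take, because they form 2 of the 3 pairs of counterparts compared here. Sequences are from the RefSeq table for GRCm38.p6, 5′ to 3′ on the gene's strand. Capitals mark a match to the STAT binding motif TTCNNNGAA (GAS) or to the core TGACNNNGC of the element bound by the Nfe2l1 and Nfe2l2 factors. Psmb8 is chr17:34198075-34198194 on the plus strand, Psmb9 chr17:34187331-34187450 on the minus strand, Psmb5 chr14:54617996-54618115 on the minus strand and Psmb6 chr11:70525237-70525356 on the plus strand.
Psmb8: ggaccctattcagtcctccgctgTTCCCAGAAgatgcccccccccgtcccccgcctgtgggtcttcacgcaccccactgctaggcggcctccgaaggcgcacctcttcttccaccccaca
Psmb9: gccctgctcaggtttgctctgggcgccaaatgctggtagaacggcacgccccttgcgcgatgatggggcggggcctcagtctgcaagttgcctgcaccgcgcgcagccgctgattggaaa
Psmb5: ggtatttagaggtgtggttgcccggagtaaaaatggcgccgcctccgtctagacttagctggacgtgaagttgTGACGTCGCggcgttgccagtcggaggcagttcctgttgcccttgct
Psmb6: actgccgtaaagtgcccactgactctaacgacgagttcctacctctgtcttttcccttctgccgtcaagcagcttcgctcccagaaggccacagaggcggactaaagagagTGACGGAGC

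The GAS letters begin 97 bases before the Psmb8 start, and the TGACNNNGC letters begin 47 bases before that of Psmb5 and 9 bases before that of Psmb6. These starts are those of the table of promoters. For Psmb6 the gene's span in RefSeq begins further upstream, at chr11:70525324, so the letters lie inside that span. Windows of 250 bases before the start were found for all 5 immunoproteasome genes and for 34 other subunits, activators and chaperones, and both strands were searched. GAS was found for 1 of the 5 and 1 of the 34, against 8.13% of 27025 genes with a window. TGACNNNGC was found for 0 of the 5 and for 5 of the 34 (14.7%), namely Psmb5, Psmb6, Psmc6, Psmd9 and Psmd12, against 11.5% of all genes. The core of the interferon-stimulated response element, GAAA followed after 2 bases by another GAAA, was found for 0 of the 5 and 3 of the 34, against 3.46% of all genes. These shares describe letters in short windows only.

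Proteasome transcripts were most abundant in the accepted graft at 1 week. Summed over all members that are subunits, activators, chaperones or inhibitors, they took 8807 ± 502 CPM there (SD, n = 3) and 5362 ± 242 CPM in the graft at 3 weeks (n = 5). The recipients' spleens held 6426 ± 96.4 CPM at 1 week (n = 3) and 4650 ± 204 CPM at 3 weeks (n = 5), and the naive spleens held 4496 ± 107 CPM (n = 5). The 3 graft libraries at 1 week, between 8294 and 9296 CPM, lay above every other library of the series. The rejecting kidney libraries gave 5542 and 7631 CPM, so they straddled the recipients' spleens at 1 week. The rejecting spleens held 4781 ± 349 CPM (n = 3), and the 24-week libraries 5048 ± 247 CPM where labelled kidney and 5240 ± 245 CPM where labelled spleen (n = 3 each).

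**Figure D1:**
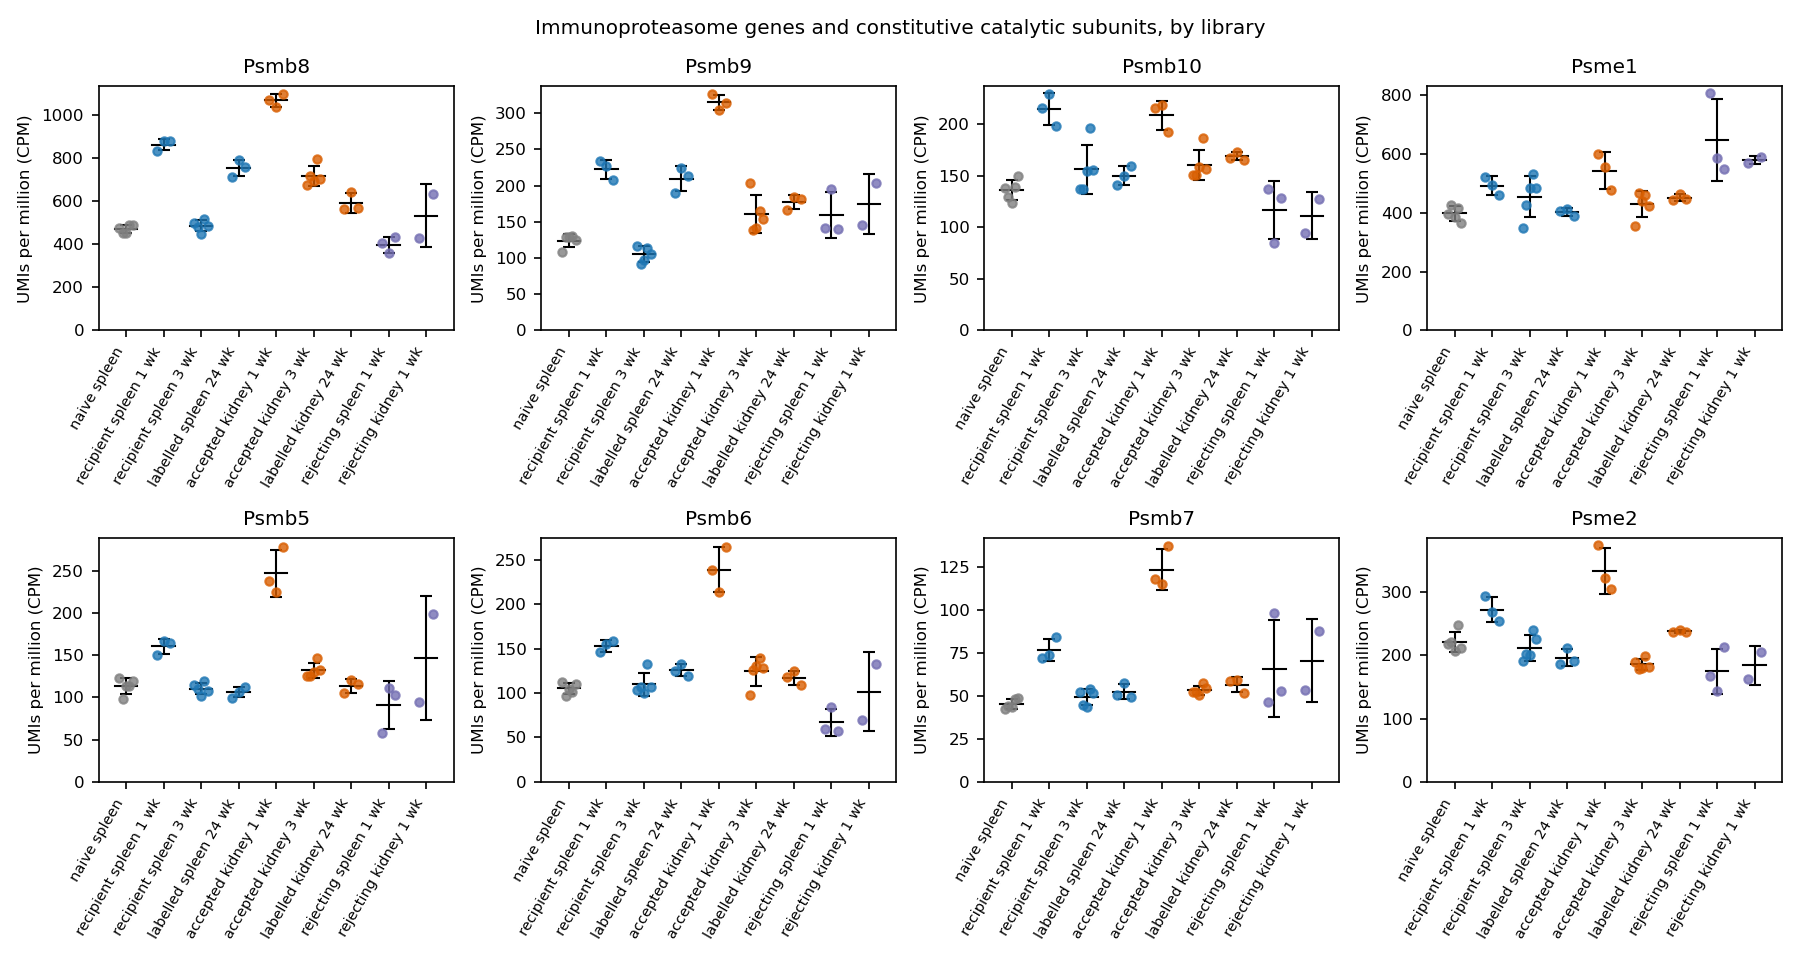
CPM (vertical axis, from 0) of the 5 immunoproteasome genes and of the constitutive catalytic subunits Psmb5, Psmb6 and Psmb7 in each library, by group; each point is 1 library, the long black bar is the mean and the error bar the SD. Psmb8 lay between 1038 and 1098 CPM in the accepted kidney at 1 week, above the libraries of all other groups.

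Psmb8, the immunoproteasome counterpart of Psmb5, had 1070, 1038 and 1098 CPM in the 3 accepted kidney libraries at 1 week. At 3 weeks the 5 kidney libraries had 674, 718, 695, 796 and 703 CPM. The recipients' spleens had 832, 880 and 878 CPM at 1 week and 501, 480, 449, 518 and 483 CPM at 3 weeks. None of these 4 groups overlapped another. The naive spleens, at 474, 455, 453, 489 and 488 CPM, overlapped the spleens at 3 weeks. Psmb9, the counterpart of Psmb6, had 326, 305 and 315 CPM in the graft at 1 week and 203, 138, 142, 165 and 154 CPM at 3 weeks. In the recipients' spleens it had 233, 226 and 208 CPM at 1 week and 117, 91.4, 97.7, 114 and 105 CPM at 3 weeks. The naive spleens had 108, 128, 129, 130 and 124 CPM of Psmb9, and most of these lay above the spleens at 3 weeks. Psmb10, the counterpart of Psmb7, had 215, 218 and 193 CPM in the graft and 215, 229 and 198 CPM in the spleen at 1 week, so these groups overlapped, and both fell to between 137 and 196 CPM at 3 weeks.

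The constitutive catalytic subunits were more abundant in the 1-week graft than in the 1-week spleen. Psmb5 had 238, 224 and 278 CPM in the graft and 150, 166 and 165 CPM in the spleen, and 126 to 147 CPM against 101 to 119 CPM at 3 weeks. Psmb6 had 238, 214 and 264 CPM in the graft and 146, 155 and 158 CPM in the spleen at 1 week. At 3 weeks the tissues overlapped in Psmb6, at 97.3 to 139 CPM in the kidney and 100.2 to 132 CPM in the spleen. Psmb7 had 118, 115 and 137 CPM in the graft at 1 week and at most 83.9 CPM in the spleens, and it lay between 43.7 and 57.2 CPM in both tissues at 3 weeks. The 11S activator genes were abundant throughout. Psme1 had 599, 555 and 476 CPM in the 1-week graft and 523, 494 and 460 CPM in the 1-week spleen, with overlap. Psme2 had 375, 323 and 304 CPM against 293, 268 and 255 CPM in the same groups, without overlap.

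The balance of immunoproteasome to constitutive catalytic transcripts was taken as a ratio within each library. These ratios are given as descriptions with no test, and their absolute height is not read, because capture can differ between transcripts. Psmb8, Psmb9 and Psmb10 together gave 2.63 ± 0.241 UMIs per UMI of Psmb5, Psmb6 and Psmb7 in the graft at 1 week (SD, n = 3) and 3.36 ± 0.217 at 3 weeks (n = 5). In the recipients' spleens the order of this ratio was the opposite, with 3.34 ± 0.168 at 1 week (n = 3) and 2.78 ± 0.0641 at 3 weeks (n = 5). Of the counterpart pairs, Psmb8 per Psmb5 alone moved as this ratio did in both tissues, from 4.36 to 5.43 in the graft and from 5.39 to 4.41 in the spleen. Psmb9 per Psmb6 had a mean of 1.33 in the graft at both times, but its median was 1.37 at 1 week and 1.18 at 3 weeks. The first kidney library at 3 weeks, at 2.09, raised the mean there (SD 0.425, n = 5). Psmb10 per Psmb7 went the other way in the spleen, from 2.82 ± 0.402 to 3.18 ± 0.406, with overlap. For the pairs together the naive spleens had 2.78 ± 0.157 (n = 5). The range of the graft at 1 week, 2.36 to 2.82, overlapped that of the naive spleens, 2.59 to 2.98, although both sets of transcripts were more abundant in the graft. The libraries labelled spleen at 24 weeks had the highest group mean, 3.92 ± 0.106 (n = 3), against 3.27 ± 0.0596 in those labelled kidney. The 3 rejecting spleen libraries spread from 2.18 to 4.18.

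A second balance, that of the 19S particle to the 20S core, was taken in the same way. The 6 ATPases and 11 non-ATPases of the 19S particle gave 0.435 ± 0.0156 UMIs per UMI of the 14 constitutive core subunits in the graft at 1 week (SD, n = 3) and 0.467 ± 0.0150 in the spleen at 1 week (n = 3). The ratio was 0.549 ± 0.0104 in the graft and 0.577 ± 0.0228 in the spleen at 3 weeks (n = 5 each), and 0.607 ± 0.0265 in the naive spleens (n = 5). It was thus lowest at 1 week in both tissues, without overlap with 3 weeks. The rejecting libraries stood apart, at 0.856 and 0.861 in the kidney and 0.742 to 0.835 in the spleen. These are the matrices with the longer gene list and with 1.38% to 1.90% of UMIs from mitochondrial genes. The part of their processing and of the recipients' strain in the ratio was not tested.

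**Figure D2:**
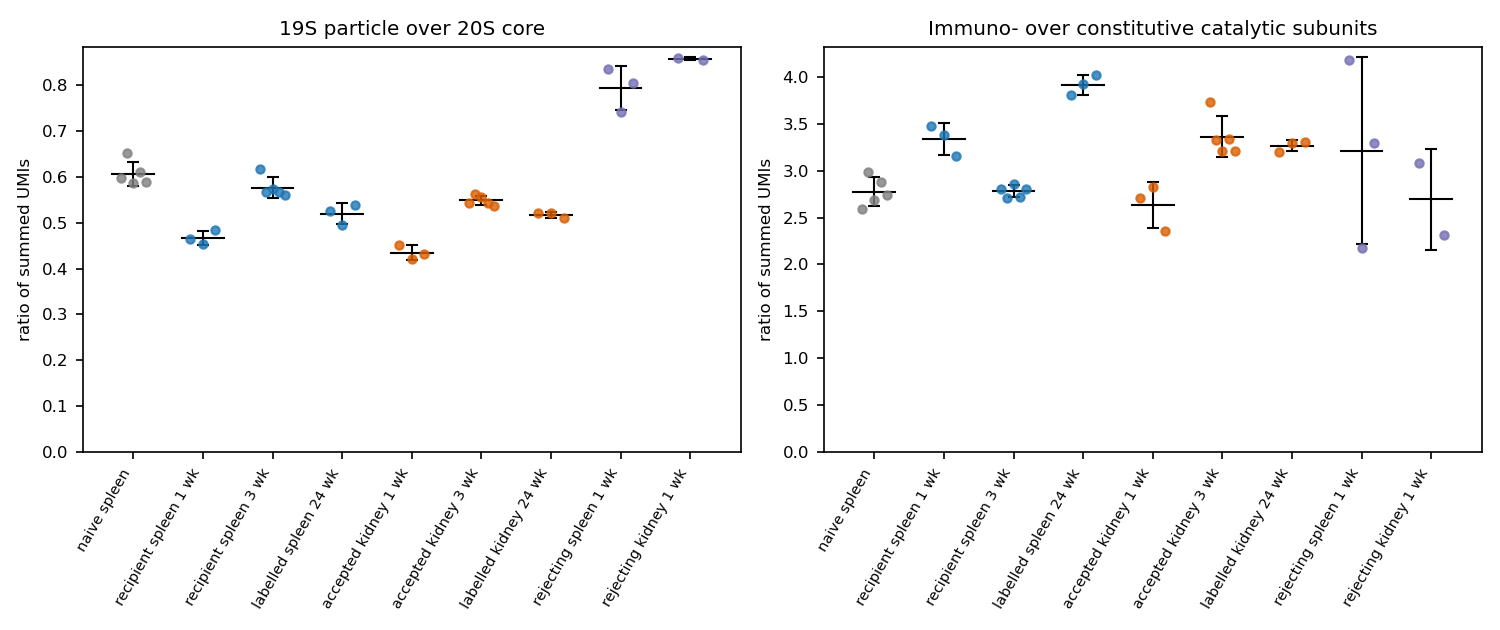
Ratio of the summed UMIs of the 19S particle to those of the 20S core (left) and of Psmb8, Psmb9 and Psmb10 to Psmb5, Psmb6 and Psmb7 (right) in each library, by group; points are libraries, the long black bar is the mean and the error bar the SD. The 5 rejecting libraries lie between 0.742 and 0.861 in the left panel, above the naive spleens at 0.587 to 0.652.

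The spleens show what transplantation was accompanied by outside the graft. Between the recipients' spleens at 1 week and naive spleens, the 20S core rose as a whole: 7 of 7 alpha subunits and 7 of 7 constitutive beta subunits were called higher, as were 5 of 5 immunoproteasome genes. A gene was called where the Benjamini-Hochberg adjusted p of edgeR's quasi-likelihood test over all genes was under 0.05. Among the 48 members, 29 were called higher, where 19.5% of all genes tested were, and 4 were called lower, where 29.0% of all genes were. The median log2 fold change was 0.40 over the members and -0.13 over all genes. With the libraries scaled by TMM factors, which bring the median of all genes to 0.04, 34 members were called higher and 1 lower. Psmb8 rose by 0.87 on the log2 scale (SE 0.09, adjusted p = 3.09e-10) and Psmb9 by 0.85 (SE 0.11, adjusted p = 5.92e-08). Psmb10 rose by 0.65 and the constitutive Psmb5, Psmb6 and Psmb7 by 0.50, 0.54 and 0.75.

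The largest changes among abundant members were in Psmb2 and Psma5, core subunits with no catalytic site of their own, each at 0.97, followed by Psma2 at 0.91. Psma5 had 134, 142 and 144 CPM in the 3 recipient spleens and 66.8 to 76.9 CPM in the naive spleens, with no overlap. The 19S particle moved less evenly. Of its ATPases, which unfold substrates, 5 of 6 were called higher, but of the non-ATPases only 3 of 11 were: Psmd8 (0.81), the deubiquitinase Psmd14 (0.64) and Psmd12 (0.25). The scaffold subunits Psmd1 and Psmd2 were at -0.12 (95% interval -0.36 to 0.12) and -0.18 (-0.42 to 0.05). The members called lower were Psme2b, the 19S assembly chaperone Psmd5 (-0.42), and the nuclear activators Psme4 (-0.39) and Psme3 (-0.37). With TMM factors, of these Psme2b alone was called, with Psmd5 at -0.24, Psme4 at -0.21 and Psme3 at -0.19. Genes spanning 100 kb or more, of which Psme4 is one, had a median log2 ratio of -0.49 here and other genes -0.12. Without the third recipient spleen library, 2 rather than 4 were called lower. The 11S genes rose by 0.31 (Psme1) and 0.30 (Psme2), but without the first recipient spleen library these values were 0.26 (adjusted p = 0.092, edgeR) and 0.24 (adjusted p = 0.062, edgeR).

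The recipient spleens also differed from naive spleens in other cells' transcripts. The summed level of 4 B cell markers was 395 to 839 CPM at 1 week and 27.9 to 55.6 CPM in naive spleens, and that of 5 proliferation genes was 257 to 655 CPM against 16.9 to 31.0 CPM. Both CD4 T cell markers (12.9 to 20.5 CPM against 2.27 to 5.09 CPM in sum) and both NK cell markers (4.78 to 7.48 CPM against 0.864 to 1.55 CPM) were called higher in the recipient spleens. Of 7 myeloid markers, 6 were tested and 4 called higher, with sums of 107 to 126 CPM against 49.3 to 70.8 CPM. Mitochondrial genes took 5.53% to 6.25% of UMIs against 3.65% to 4.63%, and Gm42418, a transcript that overlaps ribosomal RNA, took 3.80% to 4.28% against 0.425% to 1.00%. With dividing cells left out 28 members were called higher, with cells with a Cd4 UMI left out 29, and with mitochondrial and ribosomal protein genes left out of the totals 30, where the median over the members was again 0.40. Of all genes tested, 2370 were called higher with those totals. Gm42418 was left out of those totals as well, so its part was not tested alone. Here and below, counts over all genes are not given for fits with cells or libraries left out or cells thinned. Such counts of members have no share over all genes beside them. The part of B cell, NK cell and myeloid RNA was not tested. Around the proteasome, the core maturation factor Pomp rose by 0.66 and the proteasome-bound thioredoxin Txnl1 by 0.45, while Ecpas, a proteasome adaptor, fell by 0.62. Of 9 class I loading genes, B2m was the one called higher (0.32), and Nlrc5, Erap1 and Tapbp were called lower. Of 15 interferon signal genes, 2 were called higher and 4 lower. These lists depended on the scaling. With TMM factors 2 class I loading genes were called higher and 1 lower, and 5 interferon signal genes higher and 1 lower. Of all genes tested, 3151 were called higher and 2256 lower with those factors.

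By 3 weeks the core and immunoproteasome genes of the spleen were lower again. Against 1 week, 28 of the 48 members were called lower, where 15.0% of all genes were, and 4 were called higher, where 24.4% of all genes were. The median was -0.42 over the members and 0.14 over all genes. Both comparisons use the same 1-week libraries, so the reversal between them is not independent. Psmb9 fell by 1.08 (SE 0.11, adjusted p = 1.98e-09, edgeR) and Psmb8 by 0.83 (SE 0.09, adjusted p = 2.75e-09, edgeR), beside 0.54, 0.49 and 0.65 for Psmb5, Psmb6 and Psmb7. Psma5 fell by 1.11. Psme1 was at -0.12 (95% interval -0.33 to 0.10), whereas its partner Psme2 fell by 0.36. Of the ATPases 4 of 6 and of the non-ATPases 4 of 11 were called lower. The members called higher were Psme3 (0.55), Psme4 (0.49), the core assembly chaperone Psmg4 (0.26) and Psme2b, and with TMM factors only Psme3 and Psme4 of these were called. Genes spanning 100 kb or more had a median log2 ratio of 0.51 in this comparison and other genes 0.11. From 1 to 3 weeks dividing cells went from 2.72% to 10.6% of spleen cells to 0.189% to 1.47%. The 4 B cell markers went from 395 to 839 CPM to 103 to 286 CPM. Mitochondrial UMIs went from 5.53% to 6.25% to 3.73% to 4.77%, and Gm42418 from 3.80% to 4.28% to 1.10% to 1.46%. Without these and ribosomal protein genes in the totals, the median was -0.44 over the members and 0.13 over all genes. The part of B cell RNA was not tested.

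In the accepted graft the change from 1 to 3 weeks reached nearly every subunit. Of the 48 members, 39 were called lower at 3 weeks, where 20.3% of all genes were, and 3 were called higher, where 50.1% of all genes were. The median log2 fold change was -0.71 over the members and 0.40 over all genes. With TMM factors these medians were -1.07 and 0.05, and 44 members were called lower and 1 higher. All 7 alpha subunits, all 7 constitutive beta subunits, all 6 ATPases and all 5 immunoproteasome genes were called lower. The fall was larger for most constitutive subunits than for Psmb8: Psma5 fell by 1.48 (SE 0.09, adjusted p = 1.58e-16, edgeR), Psmb2 by 1.36 and the 19S subunit Psmd8 by 1.31. Psmb5, Psmb6 and Psmb7 fell by 0.90, 0.94 and 1.21.

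Among the immunoproteasome genes, Psmb9 fell by 0.97 and Psme2 by 0.84, but Psmb8 fell by 0.57, Psmb10 by 0.38 and Psme1 by 0.34. Without the first 1-week kidney library, Psme1 was at -0.26 (adjusted p = 0.054, edgeR). Of the non-ATPases, 9 of 11 were called lower, with Psmd2 at -0.25 and Psmd1 at -0.44 among the smaller falls. The other 2, the ubiquitin receptor Psmd4 and Psmd11, were at -0.10 (95% interval -0.27 to 0.06) and -0.09 (-0.28 to 0.10), and were called lower with TMM factors, at -0.46 and -0.44. Outside the particles themselves, the activator Psme4 was called higher at 0.30 and the core assembly chaperone Psmg2 at 0.32, but with TMM factors they turned to -0.06 and -0.04 with no call. Psme4 is the one member that spans 100 kb or more (109.4 kb), and genes of that span had a median log2 ratio of 0.87 in this comparison against 0.22 for other genes. The partner of Psmg2 in the same heterodimer, Psmg1, fell by 2.23, from 17.2, 16.1 and 20.6 CPM to between 3.05 and 4.83 CPM. Psmg1 is named because of its values, since its mean level was under the 20 CPM set for naming a gene.

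The other genes of the pathway moved in both directions, and the counts called higher stand beside 50.1% of all genes called higher in this comparison and 20.3% called lower. Of 7 assembly genes outside the symbol rule, Pomp (-1.25), Txnl1 (-0.92) and the small 19S subunit Sem1 (-0.53) were called lower and Ecpas higher (1.08). Of 7 regulators of proteasome transcription, 5 were called higher and 1 lower. Nfe2l1, the factor that drives proteasome genes when the protease is short, rose by 1.26 and Ddi2, the protease that activates it, by 0.99. Of 9 class I loading genes 5 were called higher, led by Nlrc5 (1.50), Tapbp (0.91) and Tap1 (0.63), and 0 lower. But with TMM factors 3 were called higher and 3 lower, and over all genes tested 4100 were called higher and 3973 lower. Tap1 was at 0.27 (adjusted p = 0.0031, edgeR) with those factors, so it was called higher under both scalings while its neighbours on chromosome 17, Psmb8 and Psmb9, were called lower. Of 15 interferon signal genes 9 were called higher, with Stat2 at 1.24 and Socs1 at 1.17, and 0 lower, against 4 and 2 with TMM factors. Of 15 ubiquitin supply and shuttling genes, 6 were called higher and 5 lower, against 4 and 8 with TMM factors. Dividing cells, those with UMIs of at least 2 of the 5 proliferation genes, made up 25.4% to 50.9% of cells at 1 week and 0.647% to 1.40% at 3 weeks. With them left out, 34 members were called lower and 4 higher. From 1 to 3 weeks mitochondrial UMIs also went from between 3.67% and 4.48% to between 2.05% and 2.38%, cells with a Cd4 UMI from between 2.65% and 4.07% to between 0.683% and 0.989%, and cells with a Cd8a or Cd8b1 UMI from between 83.5% and 90.1% to between 96.3% and 97.0%. With mitochondrial and ribosomal protein genes left out of the totals 41 members were called lower and the median over the members was -0.82. Of all genes tested, 2826 were called lower with those totals. Without cells with a Cd4 UMI 38 were called lower, and with all cells of the matrices, whether or not they had a Cd8 UMI, 39.

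**Figure D3:**
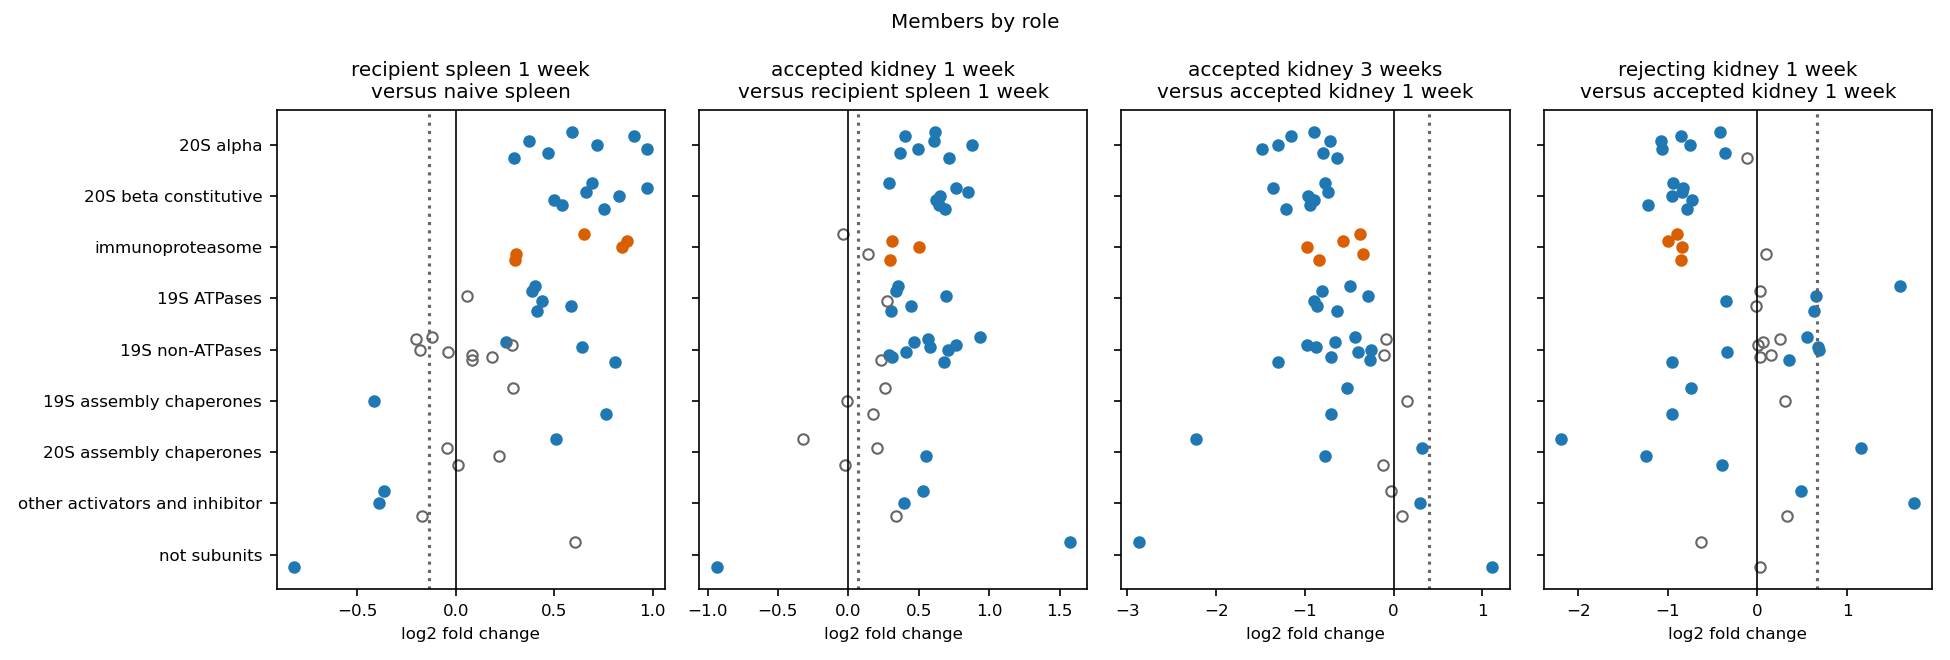
Log2 fold change on the CPM scale (horizontal axis) of the tested members by role in 4 comparisons, 1 point a gene; filled points were called at an adjusted p under 0.05, in orange for immunoproteasome genes and blue for others, open grey points were not called, the solid line is 0 and the dotted line the median of all genes tested. In the accepted kidney at 3 weeks against 1 week, 39 of the 48 members were called lower, while the median of all genes was 0.40; points right of 0 in that panel include Psme4 and Psmg2, which turn below 0 with TMM factors.

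The graft at 1 week was also above the spleen of the same recipients. Of the 48 members, 36 were called higher in the kidney, where 29.2% of all genes were, and 1, Psme2b, lower, where 20.3% of all genes were. The median log2 fold change was 0.43 over the members and 0.07 over all genes. Dividing cells made up 25.4% to 50.9% of the kidney libraries and 2.72% to 10.6% of the spleen libraries, and with them left out 25 members were called higher and 2 lower. Mitochondrial genes took 3.67% to 4.48% of UMIs in the kidney and 5.53% to 6.25% in the spleen, Gm42418 took 1.31% to 2.81% and 3.80% to 4.28%, and the 4 B cell markers summed to 8.86 to 9.26 CPM and 395 to 839 CPM. The part of B cell RNA was not tested. Gm42418 was left out only together with mitochondrial and ribosomal protein genes, as given below. All 14 constitutive core subunits and 10 of 11 non-ATPases were called higher. Psmd1, the largest scaffold of the 19S base, led with 0.94 (SE 0.13, adjusted p = 1.43e-07, edgeR), with 79.6, 63.0 and 78.4 CPM in the kidney and 37.1, 33.8 and 43.8 CPM in the spleen. Psma4 followed at 0.88 and Psmb3 at 0.85.

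Psmb5, Psmb6 and Psmb7 were higher in the kidney by 0.62, 0.64 and 0.69. Their counterparts were at 0.31 for Psmb8, 0.50 for Psmb9 and -0.04 for Psmb10 (95% interval -0.26 to 0.18), and the difference from the constitutive subunits was not tested. The ratio of Psmb8 to Psmb5 UMIs was 3.95 to 4.63 in the kidney and 5.29 to 5.54 in the spleen, without overlap, but that of Psmb9 to Psmb6 overlapped, at 1.19 to 1.43 and 1.31 to 1.60. Psme2 was at 0.29 (adjusted p = 0.016, edgeR) and lost its call without the first kidney library (0.20, adjusted p = 0.13, edgeR) or the third spleen library (0.25, adjusted p = 0.079, edgeR). Psme1 was at 0.14 (95% interval -0.10 to 0.38). When mitochondrial and ribosomal protein genes and Gm42418 were left out of the library totals, 18 members were called higher and 4 lower. Of all genes tested, 2075 were then called higher and 4355 lower. Psmb5, Psmb6 and Psmb7 then kept their calls at 0.34, 0.36 and 0.41, whereas Psmb8 was at 0.03 (adjusted p = 0.82, edgeR), Psmb9 at 0.22 (adjusted p = 0.11, edgeR) and Psmb10 was called lower at -0.32. With TMM factors Psmb8 was at 0.21 (adjusted p = 0.072, edgeR). Ribosomal protein genes took 29.3% of UMIs in these kidney libraries and 36.8% in the spleens on average. Of the 7 other assembly genes 6 were higher in the kidney. Ifng was higher by 2.70, in a comparison where 29.2% of all genes tested were called higher. It is named alone of the 15 interferon signal genes. The others are not counted here, so its value is not read as one of that list.

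At 3 weeks the comparison of graft and spleen depended on the scaling. On the CPM scale 18 members were called higher in the kidney, where 42.7% of all genes were, and 4 lower, where 16.6% of all genes were. The median was 0.15 over the members and 0.27 over all genes, so it lay on the other side of all genes than at 1 week. With TMM factors, 5 were called higher and 13 lower, and over all genes tested 3220 were called higher and 3261 lower. Psmb9 (0.61) and Psmb8 (0.56) were higher in the kidney, and both kept their call at smaller values under the other scalings. Psmb9 was at 0.34 with TMM factors, 0.36 with DESeq2 and 0.24 with totals without mitochondrial and ribosomal protein genes, and Psmb8 at 0.29, 0.31 and 0.19. Under the same scalings the median over the members was -0.12, -0.10 and -0.22, and Psmb10 turned below 0, as given further down. Psmb5, Psmb6 and Psmb7 were at 0.26 (95% interval 0.03 to 0.49), 0.18 (-0.03 to 0.40) and 0.12 (-0.08 to 0.32), with no call. Psmg2 was higher by 0.74, while Psmg1 was lower by 1.65. Psme2 was at -0.19 (adjusted p = 0.0498, edgeR), which leaving out any of 7 of the 10 libraries moved past the threshold, as far as adjusted p = 0.17. Without the fourth spleen library, 2 members rather than 4 were called lower. Class I loading genes were higher in 8 of 9 cases, led by Pdia3 (1.09) and Nlrc5 (0.98), and with TMM factors 7 were called higher and 1 lower.

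The difference between these changes was tested as an interaction. For 21 of the 48 members the change from 1 to 3 weeks was called lower in the kidney than in the spleen, where it was for 8.30% of all genes, and for 1 it was called higher, where it was for 22.1% of all genes. A lower change is not always a larger fall: the term of Psme3, with a change of -0.03 in the kidney and 0.55 in the spleen, came with a rise in the spleen. Nor did Psmd1 and Psmg4 fall in the spleen from 1 to 3 weeks. Psmd1 went from 33.8 to 43.8 CPM to 37.3 to 51.9 CPM there, and Psmg4 from 57.2 to 59.4 CPM to 62.8 to 76.9 CPM. The median of this difference was -0.32 over the members and 0.23 over all genes. The members concerned were 6 of 7 alpha subunits, 3 of 7 constitutive beta subunits, 6 of 11 non-ATPases and 1 of 6 ATPases. Psmd13 was at -0.73 (SE 0.20, adjusted p = 0.0059, edgeR), Psmd1 at -0.66 and Psmd8 at -0.61. Of the immunoproteasome genes Psme2 was called, at -0.48. Psmb8, at 0.25 (95% interval 0.01 to 0.49), Psmb9, at 0.11 (-0.19 to 0.41), and Psmb10, at 0.08 (-0.20 to 0.36), were not. Psmg2 was the member with the opposite sign (0.53), and it had no call with TMM factors (0.36, adjusted p = 0.065, edgeR), under which the change of 30 members was called lower in the kidney. Of all genes tested, 1682 were called lower and 1753 higher with those factors. With a block on the tag numbers that kidney and spleen share, 24 were called lower and 3 higher, and Psmb8 was among those called higher (0.25, adjusted p = 0.037, edgeR). With dividing cells left out, 9 members were called lower in this test rather than 21, and with cells thinned to 1000 UMIs, 5 were. Counts over all genes under these settings are not given here, so the smaller counts are not read as particular to the members.

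Dividing cells of the 1-week graft carried more proteasome RNA than other cells of the same library. Of the 48 members, 40 were called higher in dividing cells, where 28.5% of the 10378 genes tested were, and 2 lower, where 18.9% were. The median was 0.44 over the members and 0.03 over all genes. Called higher were 6 of 6 ATPases and 10 of 11 non-ATPases of the 19S particle and 7 of 7 alpha and 6 of 7 constitutive beta subunits of the core. Psmc1 was higher by 0.90 (SE 0.07, adjusted p = 7.16e-09, edgeR), with 71.2, 56.0 and 66.4 CPM in dividing and 38.5, 29.6 and 35.5 CPM in other cells. Psmd1 was higher by 0.88 and Psmc4 by 0.66. The non-subunit Psmc3ip, which acts in recombination, was higher by 2.52. Other measures moved with division too. The median UMIs per cell were 4380, 7587 and 3871 in dividing and 1758.5, 3271.5 and 1961 in other cells of the 3 libraries, the CD4 T cell markers Foxp3 and Cd4 were higher by 1.77 and 1.23, and the myeloid gene Lyz2 was lower by 0.90. With cells thinned to 1000 UMIs 36 members were called higher, and with cells holding a Cd4 UMI left out 39 were.

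The catalytic subunits gave a range of values here, and the difference between constitutive and immunoproteasome genes was not tested. Psmb6 was higher in dividing cells by 0.60, Psmb5 by 0.48 and Psmb7 by 0.40. Psmb9 was higher by 0.24 and Psmb8 by 0.16, while Psmb10 was at -0.13 (95% interval -0.23 to -0.03, adjusted p = 0.052, edgeR). With TMM factors Psmb10 was called lower at -0.19, and with DESeq2 Psmb8 was at 0.10 (adjusted p = 0.15). Psmb8 had 1121, 1108 and 1143 CPM in dividing and 1027, 985 and 1001 CPM in other cells, with no overlap. Psme1 was lower by 0.19, with 541, 527 and 456 CPM in dividing and 648, 576 and 517 CPM in other cells. The core subunit Psmb1 was also lower, by 0.15. Without the first library neither was called, and Psme1 was at -0.15 (adjusted p = 0.080, edgeR). Psme2, at 0.13, lost its call without the first library (0.15, adjusted p = 0.11, edgeR) or without the second (0.10, adjusted p = 0.28, edgeR). The interferon signal genes were lower in dividing cells in 9 of 14 cases and higher in 1. Nlrc5 was lower by 0.51, and the deubiquitinases that work on the 19S particle, Uchl5 and Usp14, were higher by 1.17 and 0.82. Dividing cells were found by their transcripts, so the comparison holds within the cells that could be so marked.

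**Figure D4:**
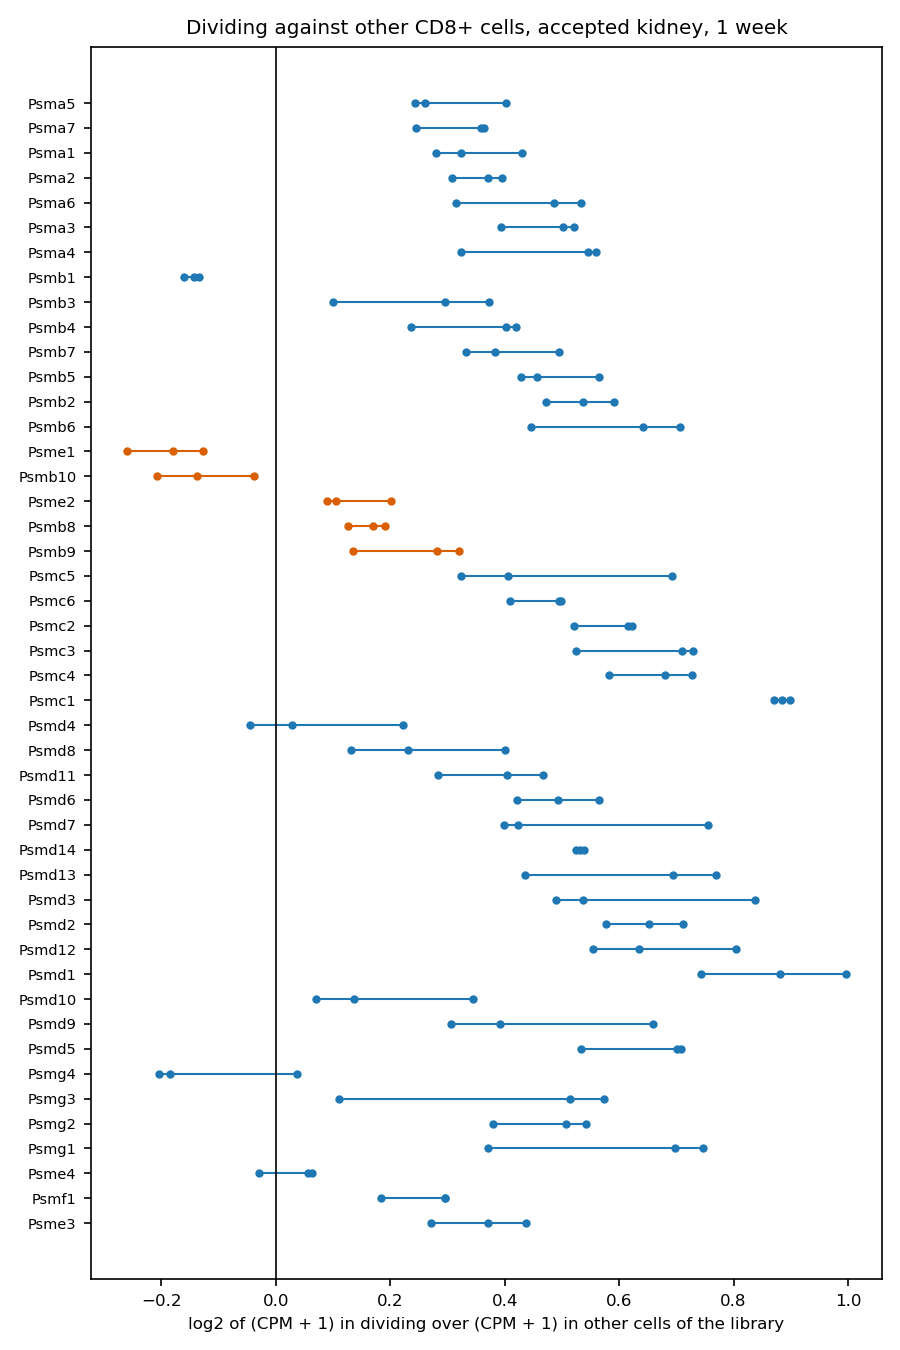
Log2 of CPM + 1 in dividing cells over CPM + 1 in other cells of the same library (horizontal axis) for the members that are subunits, activators, chaperones or inhibitors, in the accepted kidney at 1 week; the 3 points of a gene are the 3 libraries, joined by a line, and immunoproteasome genes are orange. All 3 libraries of Psme1, Psmb10 and Psmb1 lie below 0, and those of Psmc1 and Psmd1 lie farthest above it.

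In rejecting kidneys at 1 week the core was lower than in accepted ones, and the 19S particle had no single direction: 6 of 7 alpha and 7 of 7 constitutive beta subunits were called lower, with 4 of 5 immunoproteasome genes. Of the 19S ATPases 3 of 6 were called higher and 1 lower, and of the non-ATPases 4 of 11 were called higher and 2 lower. Over the 48 members, 25 were called lower, where 13.5% of all genes were, and 10 higher, where 52.8% of all genes were. The median was -0.35 over the members and 0.67 over all genes. With TMM factors, which bring the median of all genes to 0.00213, 35 were called lower and 3 higher, and of the 19S particle 1 ATPase was called higher and 3 lower and 0 non-ATPases higher and 7 lower. Most higher calls of the 19S particle were thus lost under that scaling, other than that of the ATPase Psmc1. Over all genes tested, 3749 were called higher and 3706 lower with TMM factors. Psmb8 was lower by 1.00 (SE 0.11, adjusted p = 1.01e-09, edgeR), at 430 and 635 CPM in the 2 rejecting libraries. Leaving out 1 library moved its log2 fold change to between -1.31 and -0.75. Psmb10 was lower by 0.90, Psmb9 by 0.84 and Psme2 by 0.85. Psme1, at 569 and 589 CPM, was at 0.09 (95% interval -0.18 to 0.36) and turned to -0.58 with TMM factors.

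Of the constitutive catalytic subunits, Psmb6 was lower by 1.22, Psmb7 by 0.79 and Psmb5 by 0.74. Psma3 was lower by 1.08 and the assembly chaperone Psmg3 by 1.24. The member with the largest rise was the activator Psme4, by 1.75 (SE 0.12, adjusted p = 8.19e-15, edgeR), with 117 and 112 CPM in rejecting and 35.1, 29.2 and 37.5 CPM in accepted kidneys. Psmc1 rose by 1.59, with 119 and 183 CPM against 53.4, 40.9 and 56.4 CPM, and Psmg2 by 1.16. These were the 3 members that TMM factors left called higher, at 1.08, 0.93 and 0.48. High levels were also present in rejecting spleens, at 113, 65.2 and 106 CPM of Psmc1 against 28.1 to 31.8 CPM in naive spleens. The rejecting and accepted libraries differed along gene length as well. Genes spanning 100 kb or more had a median log2 ratio of 1.91 in this comparison, above the 1.75 of Psme4, which is one of them, and other genes had 0.36, and the Spearman correlation of span and log2 ratio was 0.73 over 5687 genes and 0.30 over the members. The processing, the recipients' strain (DBA/2J for rejecting and B6 for accepted grafts, per the study) and the outcome cannot be told apart here. All values of the rejecting kidney rest on 2 libraries. Nfe2l1 was higher by 2.03, Ddi2 by 1.65 and Nlrc5 by 2.67 in rejecting kidneys, and with TMM factors by 1.37, 0.98 and 2.00. These genes are named out of longer lists, and 52.8% of all genes tested were called higher in this comparison.

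Within the rejecting matrices, which share 1 gene list, kidney was above spleen. Of the 48 members, 30 were called higher in the kidney, where 21.5% of all genes were, and 1, Psmg4, lower, where 10.0% of all genes were. The median was 0.56 over the members and 0.22 over all genes. All 6 ATPases and 10 of 11 non-ATPases were among those called higher, led by Psmd1 (1.00) and Psmd2 (0.97), with the core subunit Psma4 at 0.94. Psmb5 was higher by 0.83 and Psmb6 by 0.73, whereas of the immunoproteasome genes Psmb8 was called (0.40) and Psmb9 (0.23, 95% interval -0.10 to 0.56), Psmb10, Psme1 and Psme2 were not. Of all genes tested, 1956 were called higher with TMM factors, and 1557 higher and 1853 lower without mitochondrial and ribosomal protein genes in the totals. The count of members called higher rested on few libraries. It was 8 without the second rejecting kidney library, in which 65.4% of cells were dividing against 14.5% in the other, 17 without the first rejecting spleen library, 11 with dividing cells left out, 11 higher and 3 lower without mitochondrial and ribosomal protein genes in the totals, and 3 when the 2 groups were fitted alone. Psmb8 was at 0.08 (adjusted p = 0.71, edgeR) without the second rejecting kidney library and at 0.24 (adjusted p = 0.14, edgeR) with TMM factors, under which 18 members were called higher. Counts over all genes with libraries or cells left out, or with the 2 groups fitted alone, are not given here.

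At 24 weeks most calls depended on the scaling. Of the 48 members, 7 were called higher in the libraries labelled kidney at 24 weeks than in the kidney at 3 weeks, where 13.6% of all genes were, and 12 were called lower, where 51.5% of all genes were. With TMM factors these counts were 32 and 1, and over all genes tested they were 3463 and 3362. The median was -0.08 over the members and -0.50 over all genes. Psmg1 was higher by 2.48, at 18.5, 26.6 and 19.7 CPM against 3.05 to 4.83 CPM, beside 16.1 to 20.6 CPM in the kidney and 22.0 to 22.9 CPM in the recipients' spleens at 1 week. Psma5 was higher by 0.41 and Psme2 by 0.36. Psme4 was lower by 0.93, and Psmd1 by 0.75 and Psmd2 by 0.73, of which Psme4 (-0.43) kept its call with TMM factors and Psmd1 (-0.26) and Psmd2 (-0.24) did not. Psmb8 was lower by 0.28 on the CPM scale and higher by 0.21 with TMM factors.

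Between the libraries labelled kidney and those labelled spleen at 24 weeks, 5 members were called higher, where 12.8% of all genes were, and 7 lower, where 32.8% of all genes were. With TMM factors these counts were 22 and 0, and over all genes tested they were 2642 and 2582. The median was 0.01 over the members and -0.23 over all genes. Psme4 (-0.52), the ATPase Psmc3 (-0.43) and Psmb8 (-0.35) were lower in the libraries labelled kidney and had no call with TMM factors, whereas Psma6 (0.34), Psmd3 (0.32) and Psme2 (0.28) were higher and kept their calls with them. Psmb8 had 565, 645 and 566 CPM in those labelled kidney and 714, 792 and 758 CPM in those labelled spleen, without overlap. Counts called higher fell to between 2 and 3 when any 1 of the 6 libraries was left out, and those called lower were 4 without the third library labelled kidney. Psme2 lost its call without any of the libraries labelled kidney or the first or the third labelled spleen.

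**Figure D5:**
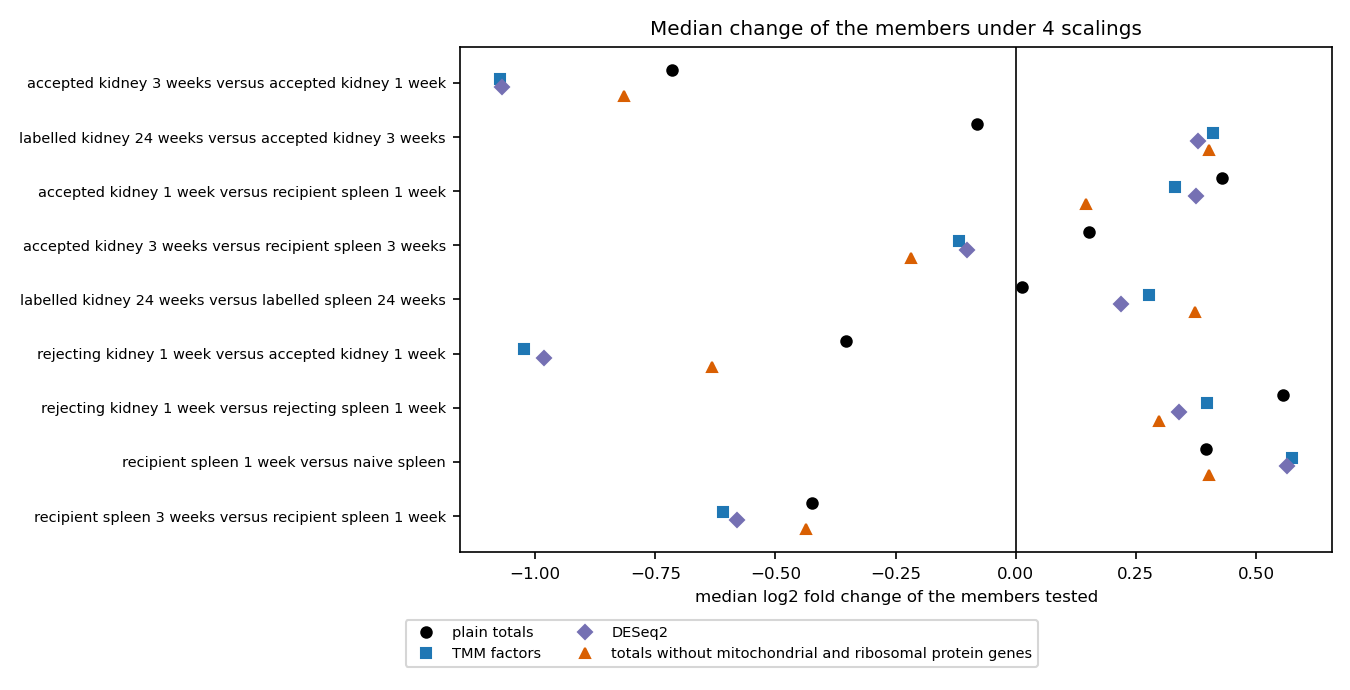
Median log2 fold change of the tested members (horizontal axis) in 9 comparisons with libraries scaled by plain totals (black circles), TMM factors (blue squares), DESeq2 size factors (purple diamonds) or totals without mitochondrial and ribosomal protein genes and Gm42418 (orange triangles). The median changes sign with the scaling for the libraries labelled kidney at 24 weeks against the kidney at 3 weeks and for kidney against spleen at 3 weeks, and keeps its sign in the other 7 comparisons.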

How the data were processed

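CD8+ T cell matrices of droplet-based 3′ single-cell RNA-seq were analysed as raw UMI counts, as deposited. Per the labels and the methods of the study, the authors mapped reads with Cell Ranger (version not given in the sources used here) to mm10, filtered cells in Seurat on UMIs, mitochondrial content and genes detected (limits not given in the sources used here) and annotated CD8+ T cells by hand. Other deposited matrices of all CD45+ cells were not used. Doublets were not called here, and whether the authors removed them is not stated.

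UMI counts of cells with at least 1 UMI of Cd8a or Cd8b1 were summed by library tag in the barcode, giving 32 libraries in 9 groups, and divided by the library total to give CPM. No 2 libraries of a group had the same counts within sampling noise (lowest chi-square per degree of freedom 2.05). Genes listed in all 9 matrices (16243) were kept, of which 12247 passed edgeR's default filter on low counts. Sums were fitted in edgeR 4.0.16 (R 4.3.3) by quasi-likelihood over these, all groups sharing 1 fit and library totals as the scale. Groups were compared by contrasts, p-values were adjusted by Benjamini-Hochberg over all genes tested, and 95% intervals are the estimate ± 1.96 SE. The SE was computed back from the test, as the absolute log2 fold change over the square root of F. The intervals are therefore approximate and need not match the p-values. Dividing and other cells were compared within library, with the library as a block. The fits were tested on simulated data. DESeq2 1.42.0, TMM factors, no filter on low counts, thinning to 1000 UMIs a cell, cell subsets and leaving out each library were alternatives, and library totals without mitochondrial and ribosomal protein genes and a block on tag number were added after seeing the data. Wherever these totals are used, they also leave out Gm42418. Python 3.11.15 was used for sums and figures.

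Members, lists and tests were chosen with earlier results of these data known. Named in each comparison were the 5 immunoproteasome genes, Psmb5, Psmb6, Psmb7, and the 3 highest and 3 lowest called members with a mean of at least 20 CPM, and likewise within each pathway list. Exceptions to this rule, Psmg1 and Psmc3ip with means under 20 CPM and members given for their role in the particle, were chosen after their values were seen. Some genes that the rule names are not reported here.

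Tag numbers recur in kidney and spleen. At 1 and 3 weeks every same-numbered pair deviated together from its group means (correlations 0.15 to 0.30 over 4720 genes and 0.10 to 0.47 over 5142 genes). At 3 weeks 2 of the 5 kidney libraries correlated better with another number. The numbers, which come from the barcodes, were used as pairs only in the alternative fit with a block on tag number. All other values come from fits without that block.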

Additional observations from a re-analysis of the deposited data

Results flagged for a closer look

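In 6 of the 93 groups of member values tested, 1 library stood far from the rest of its group, and chance gives about 1 in 20 groups. Psma4 was at 122 CPM and Psmb6 at 132 CPM in the fourth recipient spleen library at 3 weeks, above the other 4. Psmb10 was at 186 CPM in the fourth accepted kidney library at 3 weeks, above the others, and Psme2b at 23.2 CPM in the first. In naive spleens, Psmb9 was at 108 CPM in the first library and Psme4 at 30.0 CPM in the third, each below the others.

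The change from 1 to 3 weeks differed between accepted kidney and recipient spleen for 22 members (interaction term, edgeR). The difference on the log2 scale was 0.53 for Psmg2 and negative for the others. It was -2.40 for Psmc3ip, -1.33 for Psmg1, -0.73 for Psmd13, -0.66 for Psmd1, -0.61 for Psmd8, -0.59 for Psmd3, and -0.57 for Psme3 and Psmb7. It was -0.54 for Psmb2, -0.53 for Psma4, -0.48 for Psma6 and Psme2, -0.47 for Psma3, -0.46 for Psmb6, -0.45 for Psmc4, -0.44 for Psmd2 and -0.43 for Psma7. It was -0.39 for Psmd6, -0.38 for Psmg4, -0.37 for Psma5 and -0.36 for Psma2.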

How the results depend on the processing

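Counts of members called are given below as higher and lower, and the cause of each move was not tested. With TMM factors they were 1 higher for kidney 3 against 1 week, 32 and 1 for 24 against 3 weeks, 5 and 13 for kidney against spleen at 3 weeks and 22 and 0 at 24 weeks. They were 3 higher for rejecting against accepted kidney, 18 higher for rejecting kidney against spleen, 1 lower for spleen 1 week against naive, 2 higher for spleen 3 against 1 week, 0 higher in the interaction and 4 lower in dividing cells. Over all genes, TMM factors gave 1780 higher for spleen 3 against 1 week and 2495 lower in dividing cells, and the other counts stand with the results above. With DESeq2, in the same order, they were 1 higher, 31 and 3, 6 and 13, 18 and 0, 3 higher, 12 higher, 1 lower, 2 higher, and in the interaction 0 higher and 34 lower. Over all genes, DESeq2 gave 4066 higher, 3340 and 3438, 3295 and 3192, and 2345 and 2826. For the later comparisons it gave 3854 higher, 1510 higher, 2323 lower, 1968 higher, and 1649 and 1858 in the interaction. Without mitochondrial and ribosomal protein genes in the totals they were 32 and 1 for kidney 24 against 3 weeks, 18 and 4 for kidney against spleen at 1 week, 3 and 24 at 3 weeks, 29 and 0 at 24 weeks, and 11 and 3 for rejecting kidney against spleen. Over all genes these totals gave, in that order, 3386 and 3315, 2075 and 4355, 2616 and 3850, 3214 and 2169, and 1557 and 1853.

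With cells thinned to 1000 UMIs they were 4 higher for kidney 24 against 3 weeks, 2 lower for kidney against spleen at 1 week, 10 higher at 3 weeks, 2 and 2 at 24 weeks, 12 and 0 for rejecting kidney against spleen, 1 lower for spleen 1 week against naive, 1 higher for spleen 3 against 1 week, 0 and 5 in the interaction and 1 lower in dividing cells. With all matrix cells they were 2 lower for kidney against spleen at 1 week, 4 lower at 24 weeks and 2 higher in the interaction, and without cells with a Cd4 UMI 2 higher in the interaction. With dividing cells left out they were 2 lower for kidney against spleen at 1 week, 11 higher for rejecting kidney against spleen and 9 lower in the interaction. Fitted alone, rejecting kidney against spleen gave 3 and 0. Without the library block, 0 were lower in dividing cells. Counts over all genes under the settings of this paragraph are not given here.

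Psmb8 at 24 against 3 weeks turned to 0.21 with TMM factors, 0.18 with DESeq2 and 0.21 without mitochondrial and ribosomal protein genes in the totals. Psmb10 in kidney against spleen at 3 weeks turned to -0.23, -0.21 and -0.33 under these settings. Psmb8 between the libraries of 24 weeks turned to 0.0061 under the last, and Psme1 in rejecting against accepted kidney to -0.58 and -0.53 under the former 2. Of 930 recomputed values of single genes, 844 kept their direction and side of the threshold, as did 295 of 372 counts within 1.5 times.

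Leaving out 1 library gave 2 to 5 lower for kidney against spleen at 3 weeks, 2 to 3 higher and 4 to 7 lower at 24 weeks, 6 to 13 higher for rejecting against accepted kidney, 8 to 34 higher and 0 to 1 lower for rejecting kidney against spleen, 2 to 4 lower for spleen 1 week against naive, 1 to 2 higher in the interaction and 0 to 2 lower in dividing cells. With a replicate block on tag number, kidney against spleen gave 37 and 1 at 1 week and 23 and 5 at 3 weeks, so the pairing moved neither count by over 1.5 times there, and in the interaction it gave 3 and 24. At 24 weeks the block gave 7 and 9, where the same-numbered libraries correlated at 0.036, 0.072 and 0.23. In the rejecting libraries it gave 3 and 0, with the 2 numbers shared, and the pairs correlated at -0.037. Whether the numbers mark pairs there is uncertain.

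Depth limits the rejecting spleens most, where the smallest library had 56 cells, and low members such as Psmg1 rest on few UMIs there.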
